A study of Mus musculus with 1824 samples.

Results

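The 10 Sox genes described here, Sox1, Sox2, Sox3, Sox4, Sox7, Sox9, Sox10, Sox11, Sox17 and Sox18, were found by matching their symbols to the Ensembl identifiers of a table of read counts per gene. All 10 were present among the 55487 genes of the table, and 9 further genes of the family were measured beside them. Sox genes encode transcription factors that share an HMG box, a domain that bends DNA as it binds a short AT-rich motif. They are sorted into subgroups by that box, and members of a subgroup often stand in for each other. SoxB1 factors (Sox1, Sox2, Sox3) are known for pluripotent and neural ectoderm, SoxC factors (Sox4, Sox11) for progenitors of many tissues, SoxE factors (Sox9, Sox10) for cartilage, gonad and neural crest, and SoxF factors (Sox7, Sox17, Sox18) for endoderm, endothelium and the first blood vessels.

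The cells came from chimaeras, made by injecting embryonic stem cells that lack all 3 Tet genes and carry an H2B-tdTomato label (Tet-TKO) into wild-type (WT) C57BL/6J blastocysts, and were collected at embryonic day 7.5 (E7.5) or 8.5 (E8.5). The strain given in GEO is CD1, which the methods name only for the foster mothers. RNA was read from 1824 wells of 19 plates of 96 wells, with 1 sorted cell per well, by Smart-seq2. For some of the cells this was part of scNMT-seq or scM&T-seq, methods that also read DNA methylation of the same cell, and the rest had RNA alone. The 11 plates of E7.5 comprised 1 chimera plate, 4 plates named for embryos 1, 2, 4 and 5, and 6 plates named by sequencing lane, and the 8 plates of E8.5 were numbered 1 to 8. The labels give neither the genotype of a cell (Tet-TKO or WT host) nor its sorting gate. The methods describe sorting on tdTomato, KDR and CD41, and pooling of embryos before sorting. A value below may therefore hold both genotypes in unknown shares, which may differ between plates, and the makeup of a plate may have been set by its gate. In its chimaera data the paper found no tdTomato-positive cells in extraembryonic ectoderm. The 4 named embryos were the only animals that could be told apart, and each stage otherwise counted as 1 sample.

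A cell was kept when it had at least 100000 reads, which left 1649 cells (57.97% of them from E7.5 and 42.03% from E8.5) with a median of 670090 reads. Plate medians ranged from 224956 to 1699480 reads. Cells were clustered without any of the 28 genes with a Sox symbol, so the members played no part in defining the classes. The 26 clusters gave 13 classes, called "-like" after markers that they carried, and 4 unnamed clusters with 12.43% of the cells, called here by their leading gene. Of the 8 markers of each class, 7 or 8 were more than 2-fold higher in it than in the other cells of the stage. Noto and Foxj1, genes of the node, were among the leading genes of the definitive endoderm-like class. Levels are given as counts per 1000000 reads (CPM) pooled over the cells of a class, and a cell was said to have a gene when at least 1 read was left after its reads were thinned to 100000.

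The HMG box is where members of a subgroup resemble each other most, so it is also where a short read could be assigned to the wrong gene. Over 79 codons of the box pairs of members within a subgroup shared 74.7% to 88.6% of bases, and pairs from different subgroups 62.03% to 74.7%. The longest coding run that any pair of members shared exactly was 48 bases, between Sox4 and Sox11, against a read length of 75 bases. No read that lay wholly inside the coding sequence could therefore match 2 members perfectly. Below are windows of 75 bases, as long as 1 read, from the boxes of the SoxB1 and SoxF genes, read from the coding strand of GRCm38. Capitals mark the positions at which the 3 members of a subgroup are not all the same, 7 of 75 in SoxB1 and 16 of 75 in SoxF.
Sox1 (chr8:12396520-12396594, plus strand): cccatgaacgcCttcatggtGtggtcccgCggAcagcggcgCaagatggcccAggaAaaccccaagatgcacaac
Sox2 (chr3:34650551-34650625, plus strand): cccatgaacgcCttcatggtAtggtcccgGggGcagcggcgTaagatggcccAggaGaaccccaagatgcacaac
Sox3 (chrX:60892918-60892992, minus strand): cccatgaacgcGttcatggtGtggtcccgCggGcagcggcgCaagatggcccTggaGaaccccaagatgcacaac
Sox7 (chr14:63947787-63947861, plus strand): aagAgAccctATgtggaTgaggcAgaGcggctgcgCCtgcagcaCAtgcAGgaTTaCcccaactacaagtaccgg
Sox17 (chr1:4492562-4492636, minus strand): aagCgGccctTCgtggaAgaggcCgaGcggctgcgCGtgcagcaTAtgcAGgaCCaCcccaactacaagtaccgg
Sox18 (chr2:181670890-181670964, minus strand): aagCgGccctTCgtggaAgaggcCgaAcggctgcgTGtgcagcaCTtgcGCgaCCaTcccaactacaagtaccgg
Each window lies within 1 coding exon, which in Sox1, Sox2 and Sox3 is the only exon of the gene. Other loci overlap some members. An antisense gene, Gm26735, covers 54.6% of the exonic bases of Sox4, and Gm37587 covers 16.8% of those of Sox17. Whether reads were counted by strand is not given in the sources used here, so reads of Sox4 and Sox17 could not be told apart from those of these neighbours in the shared bases.

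**Figure D1:**
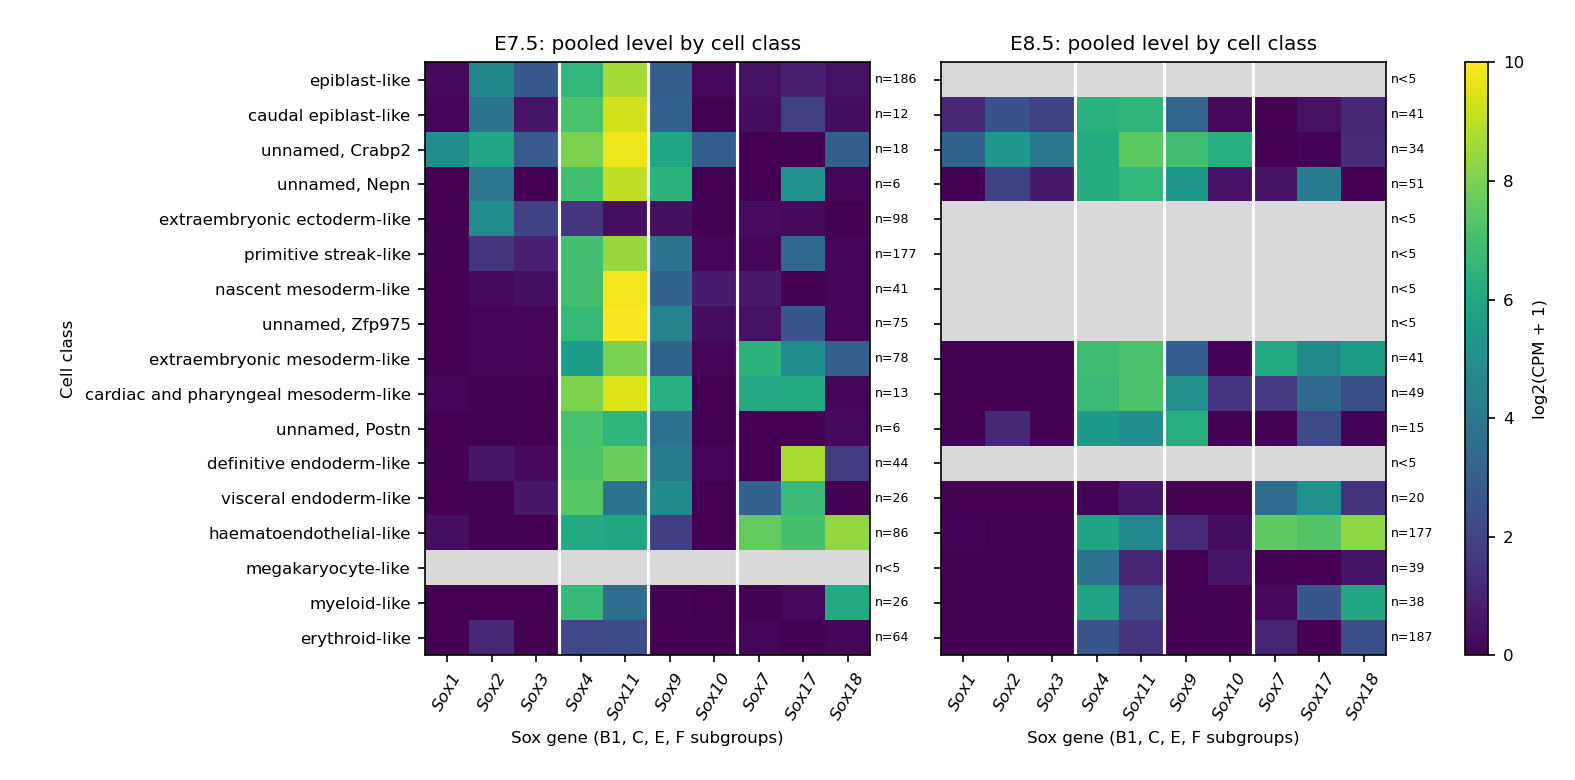
Pooled level of the 10 Sox genes (columns, ordered by subgroup) as log2(CPM + 1) in each cell class (rows, n cells at the right) at E7.5 and E8.5; grey marks classes with under 5 cells. SoxC genes were high in most embryonic classes, SoxB1 genes in few, and the haematoendothelial-like row was the 1 row in which all 3 SoxF genes reached 134.3 CPM.

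Sox2, a factor of pluripotent and neural cells, had the highest level of the SoxB1 genes per kilobase of exon over all cells, at 3.62 CPM per kb at E7.5 and 1.31 CPM per kb at E8.5. At E7.5 it stood at 23.2 CPM (95% Poisson interval 22.4 to 23.99) in epiblast-like cells, which made up 19.5% of the cells of that stage, and had a read in 58.1% of them. On the 8 plates with at least 5 such cells it ranged from 14.4 CPM in embryo 5 to 76.01 CPM on lane plate 4, so every plate carried it. Sox2 reached a like level, 26.95 CPM, in extraembryonic ectoderm-like cells, the stem cell compartment of the trophoblast, where 58 of 98 cells (59.2%) had a read. The plate ranges of these classes overlapped. In erythroid-like cells, which should lack the gene, 1 of 64 cells (1.56%) had a read, with a median depth, over both stages, of 820744 reads against 647383 in epiblast-like cells. No Sox2 read was found in haematoendothelial-like cells at E7.5, which allows at most 0.0366 CPM there.

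The highest Sox2 level of either stage was in the unnamed cluster led by Crabp2, whose leading genes include Pax6, Nkx2-9 and Rfx4, genes of the neural tube. It stood at 57.96 CPM in 18 cells at E7.5 and at 39.6 CPM in 34 cells at E8.5. Of the E7.5 cells 16 came from lane plate 4, and of the E8.5 cells 23 came from plate 7. Sox3, a close relative of Sox2 on the X chromosome, was found in the same classes, with 6.18 CPM in epiblast-like cells, 6.27 CPM in the E7.5 cells of the Crabp2-led cluster and 14.6 CPM in its E8.5 cells. Per kilobase it was below Sox2 in epiblast-like cells, at 2.99 against 11.3 CPM per kb. Sox1, the SoxB1 gene that marks neural commitment, had most of its reads in that cluster, with 28.98 CPM at E7.5 and 8.42 CPM at E8.5. Those cells held 87.96% of the Sox1 reads of E7.5 and 83.6% of those of E8.5. Sox1 reads were few and lay in few cells, since the 5 highest cells held 79.03% of them at E7.5.

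All 3 SoxB1 genes were found together in cells of the Crabp2-led cluster and in 1 caudal epiblast-like cell of E8.5. At E7.5, 10 of 18 cells of that cluster had 2 SoxB1 genes and 2 had all 3. At E8.5, 10 of 34 cells had 2 and 6 had all 3. Of the epiblast-like cells 87 (46.8%) had 1 SoxB1 gene and 35 (18.8%) had 2, as did 10 of 98 extraembryonic ectoderm-like cells and 4 primitive streak-like cells. In the epiblast-like class 0 cells had all 3, which allows a share of up to 1.61% (3 counts of the total). Of the 46 epiblast-like cells with Sox3, 32 (69.6%) also had Sox2, whereas 29.6% of the cells with Sox2 had Sox3. Reading depth limits these shares, since Sox3 was found in 23.7% of E7.5 ectoderm cells after thinning and in 50% when any read counted.

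All 3 SoxF genes stood at 134.3 CPM or more in haematoendothelial-like cells, the progenitors and cells of the first vessels, and no other class had all 3 at that level. At E7.5 Sox7 stood at 193.2 CPM, Sox17 at 134.3 CPM and Sox18 at 335.2 CPM in 86 cells, of which 66 came from lane plate 2. At E8.5, when the class was 25.5% of all cells, the levels were 188.2, 157.1 and 318.02 CPM. Per kilobase of exon, which allows genes to be compared, Sox18 was the highest at 206.9 CPM per kb, before Sox7 at 58.6 and Sox17 at 28.2 at E7.5, and the order was the same at E8.5 (196.3, 57.04 and 32.9). Each of the 3 plates with at least 5 such cells carried all 3 genes at E7.5, with Sox18 between 305.8 CPM on lane plate 3 and 435.08 CPM on lane plate 1. At E8.5 plate 6 was the lowest of 3 plates for Sox17 (91.99 CPM, against 176.3 on plate 4 and 209.9 on plate 3) and for Sox18 (243.4 CPM, against 318.9 and 388.2).

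Single haematoendothelial-like cells usually had all 3 SoxF genes. They were found together in 60 of 86 cells at E7.5 (69.8%, exact binomial 95% interval 58.9 to 79.2) and in 61.02% of cells at E8.5 (53.4 to 68.2). Only 1 of these cells at E7.5 and 4 at E8.5 had none. Of the E8.5 cells with Sox17, 97.6% had Sox18, while 73.5% of the cells with Sox18 had Sox17. In erythroid-like cells, as a background, 3 of 64 (4.69%) had 1 SoxF gene at E7.5 and 9 cells (4.81%) at E8.5.

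**Figure D2:**
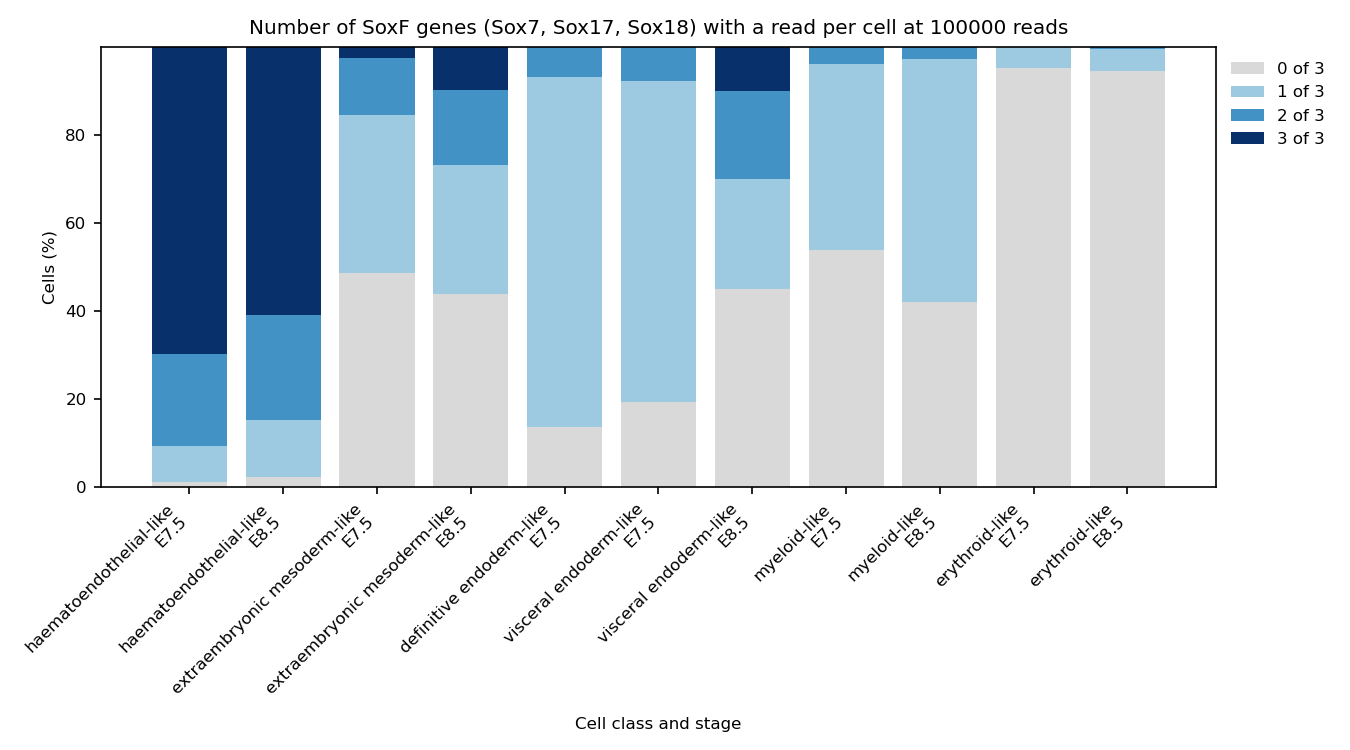
Percentage of cells (vertical axis) of each class and stage (horizontal axis) in which 0, 1, 2 or 3 of the SoxF genes had a read at 100000 reads per cell. All 3 were found in 69.8% and 61.02% of haematoendothelial-like cells, while 79.5% of definitive endoderm-like cells had 1 of them.

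In definitive endoderm-like cells 1 SoxF gene, Sox17, was found in most cells. Sox17, which is required for gut endoderm, reached its highest level in definitive endoderm-like cells, at 427.8 CPM (420.7 to 435.04) in 44 cells at E7.5, where Sox7 had no read (at most 0.0934 CPM) and Sox18 stood at 2.34 CPM. A Sox17 read was found in 38 of the 44 cells (86.4%). The 5 plates with at least 5 such cells ranged from 149.1 CPM on lane plate 5, where 28.6% of 7 cells had a read, to 548.3 CPM on the chimera plate. In visceral endoderm-like cells Sox17 stood at 112.2 CPM at E7.5, with 54.3 CPM in embryo 4 and 182.3 CPM in embryo 5, and at 31.96 CPM in 20 cells at E8.5. Sox7 was at 7.79 CPM in those cells at E7.5 and at 10.99 CPM at E8.5, where 8 of 20 cells (40%) had a read.

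SoxF genes were also found outside endoderm and vessels. Sox7 stood at 86.2 CPM in extraembryonic mesoderm-like cells at E7.5 and 65.98 CPM at E8.5. On the 6 E7.5 plates with at least 5 of these cells it ranged from 3.77 CPM in embryo 2 to 128.5 CPM on lane plate 3. These cells also carried Sox17, at 29.2 and 24.8 CPM, and Sox18, at 7.39 CPM at E7.5 and 48.1 CPM at E8.5. All 3 genes were found in 2 of 78 of them at E7.5 and in 4 of 41 at E8.5, and 2 genes in a further 10 and 7. Sox18 stood at 68.6 CPM in myeloid-like cells at E7.5 and 60.4 CPM at E8.5, with a read in 46.2% and 52.6% of cells, whereas Sox7 was at 0.0334 and 0.189 CPM in them. Vessel markers moved with it. The summed level of the 8 haematoendothelial markers in myeloid-like cells was 1159 CPM at E7.5 and 1232 CPM at E8.5. It was 4165 and 4318 CPM in haematoendothelial-like cells and 153.8 and 171.5 CPM in erythroid-like cells. None of the 8 was at 0 in any of these classes, erythroid-like cells included. In extraembryonic mesoderm-like cells the sum was 939.7 CPM at E7.5 and 1225 CPM at E8.5, but Cdh5 stood at 39.6 and 7.69 CPM there and at 108.5 and 68.2 CPM in myeloid-like cells. The part of these markers' cells in the Sox7 and Sox18 values was not tested.

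Haematoendothelial-like cells split at a finer resolution into 6 clusters with at least 29 cells, and the SoxF genes differed among them in different ways. Sox7 was highest in a cluster led by Gja5 and Gja4, gap junction genes of arteries, at 360.5 CPM, and lowest at 47.6 CPM in a cluster led by Stab2 and Lyve1, genes of sinusoidal and lymphatic vessels. Sox17 was at nearly equal levels in that pair, 159.2 and 158.5 CPM. Its highest values, 232.8 and 223.96 CPM, were in clusters led by Emcn and by Dll4, and its lowest, 59.3 CPM, was in a cluster led by Lyz2 and Mpo, genes of myeloid cells. In that Lyz2-led cluster 16 of 51 cells (31.4%) had Sox17, while 45 of 51 (88.2%) had Sox18. Sox18 ranged from 243.1 CPM in the Lyz2-led cluster to 500.01 CPM in the Gja5-led one. These clusters were drawn mostly from single stages and plates, with 29 of the 34 Gja5-led cells from E7.5 and all 51 Lyz2-led cells from E8.5, so that type and plate cannot be told apart.

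**Figure D3:**
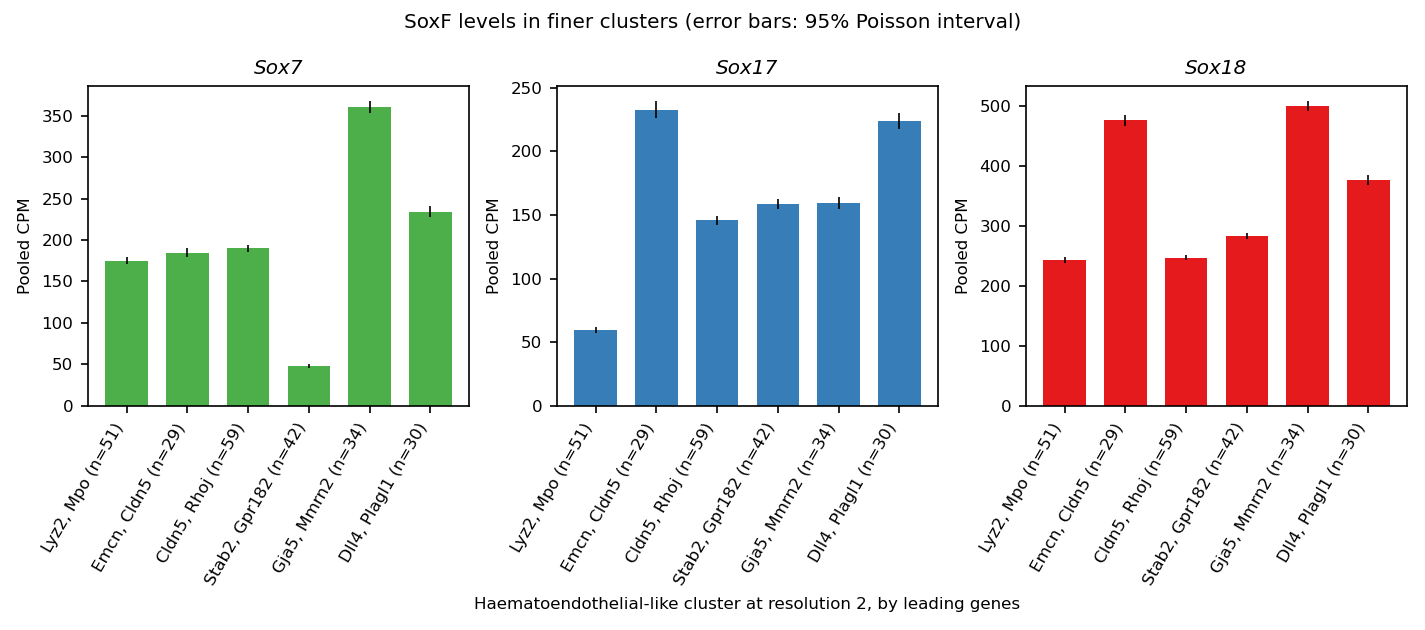
Pooled CPM (vertical axes, from 0, each gene on its own scale) of Sox7, Sox17 and Sox18 in 6 finer haematoendothelial-like clusters (horizontal axes, named by leading genes, n cells); error bars are 95% Poisson intervals and cover counting error only. Sox7 spans 47.6 to 360.5 CPM, Sox17 59.3 to 232.8 CPM and Sox18 243.1 to 500.01 CPM.

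The SoxC genes had the widest reach of the 10. Sox11, known for progenitors of neural and mesenchymal tissues, was found in 76.3% of cells at E7.5 and Sox4 in 75.8%, and 68.8% had both. Sox11 stood at 989.03 CPM in the unnamed cluster led by Zfp975, 895.04 CPM in nascent mesoderm-like cells and 860.9 CPM in the Crabp2-led cells, and at 409.2 CPM in epiblast-like cells. Plates carried different levels for the same class, with epiblast-like cells at 269.004 to 360.3 CPM on the chimera plate and the 4 embryo plates and at 553.6 to 1010.6 CPM on lane plates 4, 5 and 6. Sox11 was low in trophoblast, visceral endoderm and blood, at 0.342 CPM in extraembryonic ectoderm-like, 13.5 CPM in visceral endoderm-like and 4.05 CPM in erythroid-like cells.

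Sox4, known for lymphoid, cardiac and endocrine progenitors, shared that pattern except in visceral endoderm-like cells of E7.5 and in myeloid-like cells. In visceral endoderm-like cells at E7.5 it stood at 169.4 CPM (35.3 CPM per kb, against 1.63 for Sox11) and was found in 24 of 26 cells, against 4 of 26 for Sox11. In myeloid-like cells it stood at 103.04 CPM (21.5 CPM per kb, against 1.33 for Sox11). The visceral endoderm-like cells of E8.5 had almost none, 2 reads in 20 cells or 0.0782 CPM, and 17 of these 20 cells came from plate 1. Both genes were low in erythroid-like cells at E8.5, with Sox4 at 5.35 CPM and Sox11 at 1.91 CPM.

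The SoxE genes were rarer. Sox9 was highest in the Crabp2-led cluster, with 57.6 CPM at E7.5 and 124.99 CPM at E8.5, and in the cardiac and pharyngeal mesoderm-like class at E7.5, with 77.6 CPM in 13 cells. It was also found at 75.8 CPM in the 15 Postn-led cells of E8.5 and at 41.9 CPM in the 51 Nepn-led cells. The highest cell held 22.6% of the Sox9 reads of E8.5 and the 5 highest cells 54.1%. On 2 plates the Crabp2-led cells of E8.5 had Sox9 at 33.95 and 342.98 CPM, which overlapped the plate range of the Nepn-led cells. Sox10, the factor of migrating neural crest, had 2110 of its 2229 E8.5 reads in the Crabp2-led cluster (77.2 CPM), but 5 cells held 94.7% of all its reads at that stage. All 5 Crabp2-led cells with a Sox10 read after thinning also had Sox9. No neural crest-like class was found by the markers, so these cells carry no such name here.

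The remaining 9 Sox genes were mostly low. Sox13 stood at 33.4 CPM at E7.5 and 53.8 CPM at E8.5 in the Crabp2-led cluster. Sox21, of the SoxB2 subgroup, was at 38.9 CPM in the E8.5 Crabp2-led cells and at 29.4 CPM in extraembryonic ectoderm-like cells, where 64.3% of cells had a read, and an overlapping gene covers 18.8% of its exonic bases. The SoxD genes Sox5 and Sox6 were highest in Postn-led cells, with Sox6 at 73.03 CPM in 6 cells of E7.5 and 48.8 CPM in 15 cells of E8.5. Sox12 and Sox8 did not exceed 25.9 and 8.42 CPM in any class, and Sox14, Sox15 and Sox30 did not exceed 5.22 CPM.

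The first comparison asked whether SoxB1 genes were higher in ectoderm, and SoxF genes in endoderm and endothelium, than in all other cells of the stage. Ectoderm held epiblast-like and caudal epiblast-like cells at E7.5 and caudal epiblast-like cells alone at E8.5, endoderm held definitive and visceral endoderm-like cells at E7.5 and visceral ones alone at E8.5, and endothelium was the haematoendothelial-like class. With 1 sample a stage there is no test, and a gene with at least 10 CPM on 1 side was called higher when its CPM, plus 1, was more than 2-fold higher. Of 18 comparisons 13 reached that minimum, and 8 were called higher and 4 lower. The share of all genes called lower in a lineage was not taken. Counts of lower genes, here and among the partners below, thus have no share to be set against. The other cells hold the unnamed clusters, so SoxB1 levels of the Crabp2-led cells count against ectoderm.

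In ectoderm at E7.5 Sox2 stood at 22.7 CPM against 4.30 CPM in the other cells, a log2 ratio of 2.16, and was higher on 8 of 9 plates. Of all genes tested, 4.94% were called higher in this lineage at E7.5, and 8.94% at E8.5. Sox3, at 5.87 against 0.637 CPM, and Sox1, at 0.186 against 0.696 CPM, fell under the minimum, as did all 3 SoxB1 genes at E8.5, where Sox2 was at 4.81 against 2.56 CPM in 41 cells. Within plates Sox2 was higher in E8.5 ectoderm on 0 of 2 plates, with log2 ratios of -3.04 and -0.28. Sox1 and Sox3 were each higher on 1 of these 2 plates.

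In endoderm at E7.5 Sox17 stood at 320.98 CPM against 20.8 CPM, a log2 ratio of 3.89, and was higher on 7 of 7 plates, where 8.18% of all genes were called higher. Sox7 and Sox18 were called lower there over pooled cells, with log2 ratios of -3.09 and -3.94. Within plates the gap was narrower, with a median log2 ratio of -1.15 for Sox7, which was higher in endoderm on 1 of 7 plates, and of -0.01 for Sox18, which was higher on 3 of 7. At E8.5, where 16.5% of all genes were called higher, no SoxF gene was, and Sox17 stood at 31.96 against 41.3 CPM (log2 ratio -0.36). Without plate 3, which holds 70 of the haematoendothelial-like cells of that stage, the Sox17 ratio at E8.5 turned to 0.48. Sox7 and Sox18 were called lower at E8.5 too over pooled cells, with log2 ratios of -2.07 and -4.94. On the 1 plate with at least 5 endoderm cells the direction was the other way for Sox7 (log2 ratio 3.16) and Sox17 (4.76), and Sox18 had a ratio of 0. Sox7 was also found in a larger share of endoderm cells than of other cells at E8.5 (40% against 23.8%).

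In endothelium all 3 SoxF genes were called higher at both stages. At E7.5 the log2 ratios were 4.04 for Sox7, 2.24 for Sox17 and 6.10 for Sox18, and 14.1% of all genes were called higher. At E8.5 they were 4.76, 4.37 and 4.98, with 10.2% of all genes called higher. Each gene was higher on 3 of 3 plates at both stages. The other cells of E7.5 include the definitive endoderm-like class, in which Sox17 stood at 427.8 CPM.

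Known partners and targets of each subgroup were counted in the same way. The clusters were drawn from variable genes other than Sox genes, which can include these partners. Their excess in a class may thus be set in part by the clustering, with or without the class markers. Of 8 measured SoxB1 partners and targets in ectoderm at E7.5, 6 were called higher and none lower, with a median log2 ratio of 2.13 beside -0.03 over all genes tested. Among them were Utf1 (log2 ratio 3.60), Pou5f1 (2.79), Pou3f1 (2.78) and Hesx1 (2.15), all genes of pluripotent or anterior epiblast. Utf1 and Pou5f1 are also among the markers that named the epiblast-like class, and without both 4 of 6 were higher. At E8.5, 2 of 3 were higher, Fgf4 (3.48) and Pou5f1 (2.33). Of all genes tested, 4.94% were called higher in ectoderm at E7.5 and 8.94% at E8.5. The list was not raised in ectoderm alone. In endoderm at E7.5, where Sox2 stood at 0.371 CPM, 3 of 8 were higher and 3 lower. Hesx1 was among those higher there, at 20.9 against 3.24 CPM (2.37). In endothelium at E7.5, 1 of 7 was higher and 6 were lower.

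Of 18 measured SoxF partners and targets, 12 were called higher and 3 lower in endothelium at E7.5, and 11 of 16 were higher and 1 lower at E8.5. The median log2 ratios were 2.26 and 3.01, beside -0.12 and -0.02 over all genes tested. Cdh5, Tek and Kdr are also among the markers that named the class, so their excess in it was set by the naming. Without these 3 genes, 9 of 15 were higher at E7.5 and 8 of 13 at E8.5, with median log2 ratios of 1.83 and 1.72. Of all genes tested, 14.1% and 10.2% were called higher in endothelium at these stages. Cldn5, a tight junction gene, stood at 788.5 against 2.36 CPM at E7.5 (log2 ratio 7.88), and Dll4, an arterial Notch ligand, at 154.5 against 0.332 CPM (6.87). Cldn5 also leads a haematoendothelial-like cluster and Dll4 a finer one, so the clustering itself may have set part of their excess. In endoderm 4 of 18 were higher and 10 lower at E7.5 (3 of 17 and 10 without the class marker Foxa2), with Kdr, the receptor used for sorting, at a log2 ratio of -5.98. Of the SoxC list 2 of 3 were higher in ectoderm at E7.5 and 2 of 2 at E8.5, and of the SoxE list 1 of 3 and 0 of 3.

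The second comparison used the 4 named E7.5 embryos as replicates, with the cells of each lineage summed per embryo and the embryo as a block, in edgeR's quasi-likelihood test with Benjamini-Hochberg adjustment over all genes. A gene was called at 1% FDR and a fold change past 2. Between 7 and 36 ectoderm cells (all epiblast-like), 8 to 14 mesoderm cells and 8 to 15 endoderm cells per embryo entered the sums. The mesoderm cells were all extraembryonic mesoderm-like, but for 2 cardiac and pharyngeal mesoderm-like cells in embryo 5. The embryos were not alike in makeup, since the endoderm cells of embryos 1 and 2 were all definitive endoderm-like, and 12 cells each in embryos 4 and 5 were visceral endoderm-like.

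**Figure D4:**
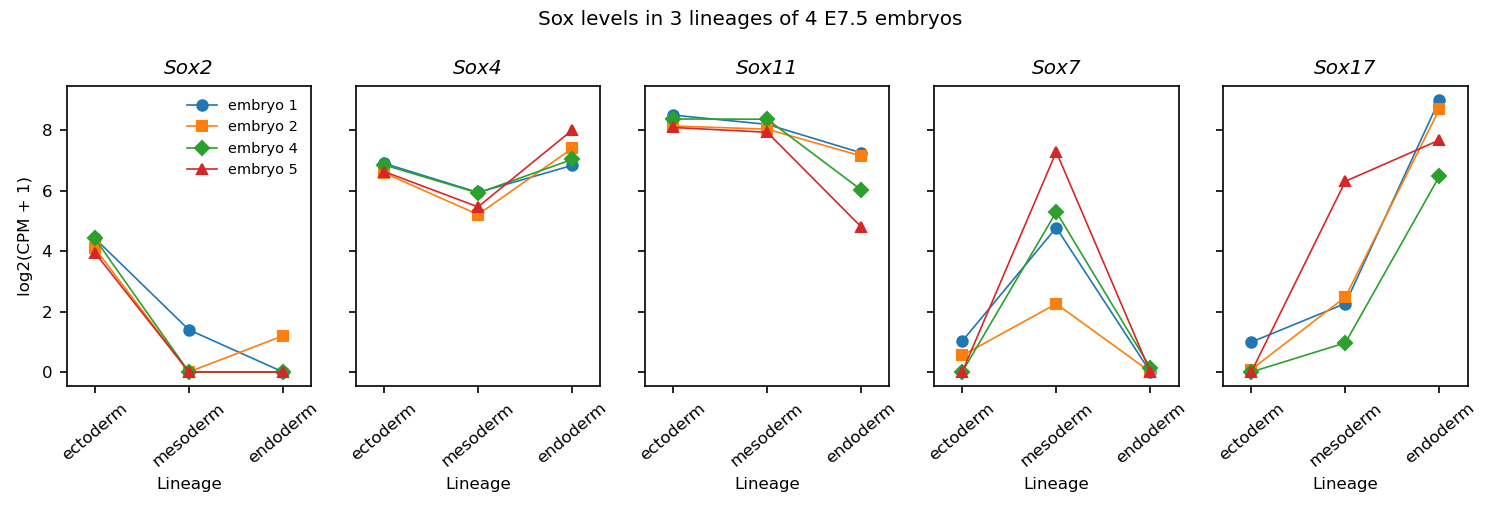
Pooled level, as log2(CPM + 1) on the vertical axis, of 5 Sox genes in the ectoderm, mesoderm and endoderm (horizontal axis) of 4 E7.5 embryos, 1 line and marker each. Sox17 was at 88.3 CPM or more in the endoderm of all 4 and at 0.983 CPM or less in their ectoderm, while Sox2 was at 14.4 CPM or more in the ectoderm of all 4.

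Sox17 was the member called in endoderm over ectoderm. It stood at 514.5, 415.4, 88.3 and 203.02 CPM in the endoderm of embryos 1, 2, 4 and 5, and at 0.983, 0.0576, 0 and 0 CPM in their ectoderm, so the groups did not overlap and embryo 4 was the lowest in endoderm. The fitted log2 fold change was 10.4 ± 0.736 (SE, edgeR, adjusted p = 0.00536, n = 4 embryos, higher in 4 of 4). With ectoderm at or near 0 this value depends on the prior count. It was 1 of 6 members tested, where 0.165% of all genes were called higher and 0.0157% lower. Without embryo 4 the adjusted p of edgeR was 0.0289 and without embryo 5 it was 0.0371, so 1% FDR was not reached in either case.

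Sox2 and Sox11 went the other way without passing 1% FDR. Sox2 stood at 20.4, 16.02, 20.4 and 14.4 CPM in ectoderm against 0, 1.29, 0 and 0 CPM in endoderm of the same embryos (log2 fold change -7.23 ± 1.58, edgeR adjusted p = 0.0822). Sox11 stood at 360.3, 280.7, 329.6 and 271.2 CPM in ectoderm against 151.2, 140.6, 63.995 and 26.8 CPM in endoderm (-1.94 ± 0.41, edgeR adjusted p = 0.0766). Neither set of values overlapped, and the lowest Sox11 values were those of embryos 4 and 5, where visceral endoderm-like cells were most of the endoderm. Sox3, Sox4 and Sox9 had edgeR adjusted p-values of 0.335, 0.294 and 0.830.

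In ectoderm over mesoderm none of the 5 members tested was called at 1% FDR by edgeR, where 0.723% of all genes were called higher and 1.37% lower. At an unadjusted p under 0.05 edgeR gave 3 of the 5, the same 3 that passed 5% FDR and that DESeq2 called at 1% FDR. DESeq2 called 11.8% of all genes. The shares of all genes under the looser edgeR limits are not given, so these counts cannot be read as particular to Sox genes. Sox2 had no read in the mesoderm of 3 embryos and was at 1.63 CPM in that of embryo 1, with a log2 fold change of 6.78 ± 1.36 (edgeR adjusted p = 0.0339, higher in 4 of 4). Sox4 stood at 118.7, 95.2, 114.5 and 98.1 CPM in ectoderm against 60.3, 35.99, 59.6 and 43.1 CPM in mesoderm, with no overlap (1.13 ± 0.17, edgeR adjusted p = 0.0137). Sox7 was lower in ectoderm, at 1.03, 0.461, 0 and 0 CPM against 26.3, 3.77, 38.3 and 154.6 CPM (-5.57 ± 1.195, edgeR adjusted p = 0.0412). Without the embryo as a block edgeR called 2 of these, Sox4 and Sox7. The mesoderm here was almost all extraembryonic mesoderm-like, so these values do not cover other mesoderm. Nascent mesoderm-like cells of E7.5, from other plates, had Sox4 at 128.1 CPM, against 98.7 CPM in epiblast-like cells. Their Sox7 level was 0.587 CPM.

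The third comparison set E8.5 beside E7.5. The plates of the stages were filled with different cell types, so fewer cells of a type and less RNA per cell cannot be told apart in a plate value. A gene was called when its pooled CPM, plus 1, differed by more than 2-fold and no plate of 1 stage overlapped a plate of the other, which 0.091% of all genes passed as higher and 1.09% as lower at E8.5. None of the 6 members with at least 10 CPM was called. With 1 sample a stage there is no test.

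Sox11 had the widest gap, from 353.1 CPM at E7.5 to 46.2 CPM at E8.5 (log2 ratio -2.91), and 7 of 11 E7.5 plates were above all 8 E8.5 plates. On E7.5 plates its lowest, median and highest values were 22.6, 294.2 and 832.7 CPM, and on E8.5 plates 0.675, 35.6 and 145.5 CPM, so the ranges overlapped. The gap was also seen within classes found at both stages, with 254.1 against 145.6 CPM in extraembryonic mesoderm-like, 61.4 against 23.9 CPM in haematoendothelial-like and 860.9 against 178.8 CPM in Crabp2-led cells. Sox4 stood at 91.8 CPM at E7.5 and 45.7 CPM at E8.5 (log2 ratio -0.99). Per kilobase of exon Sox11 was above Sox4 at E7.5, at 42.5 against 19.2 CPM per kb, and below it at E8.5, at 5.55 against 9.53 CPM per kb.

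Among the SoxF genes, Sox18 had its highest values on plates rich in haematoendothelial-like cells. Sox18 stood at 35.99 CPM at E7.5 and 79.3 CPM at E8.5 (log2 ratio 1.12), and the plate values ran from 0.00958 to 271.8 CPM at E7.5 and from 0 to 317.6 CPM at E8.5. Its highest E7.5 plate was lane plate 2, and its highest E8.5 plates were 3, 4 and 6, which held 70, 45 and 62 haematoendothelial-like cells. When only the 4 embryo plates stood for E7.5, the log2 ratio of Sox18 was 5.57. Sox7 was at 28.5 and 47.4 CPM and Sox17 at 38.003 and 40.9 CPM at E7.5 and E8.5. Sox17 was found on all 11 E7.5 plates, at 12.2 to 114.97 CPM with a median of 36.1 CPM.

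Sox2, Sox9 and Sox10 had their highest E8.5 values on plates 7 and 8. Sox2 was at 13.01 CPM on plate 7 and 7.37 CPM on plate 8, and at 0.565 CPM or less on the other 6 plates of that stage. Sox9 was at 35.1 and 58.97 CPM on these plates, above every E7.5 plate. Sox10 was at 27.5 and 6.97 CPM on them, and at 0.957 CPM or less elsewhere at E8.5.

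**Figure D5:**
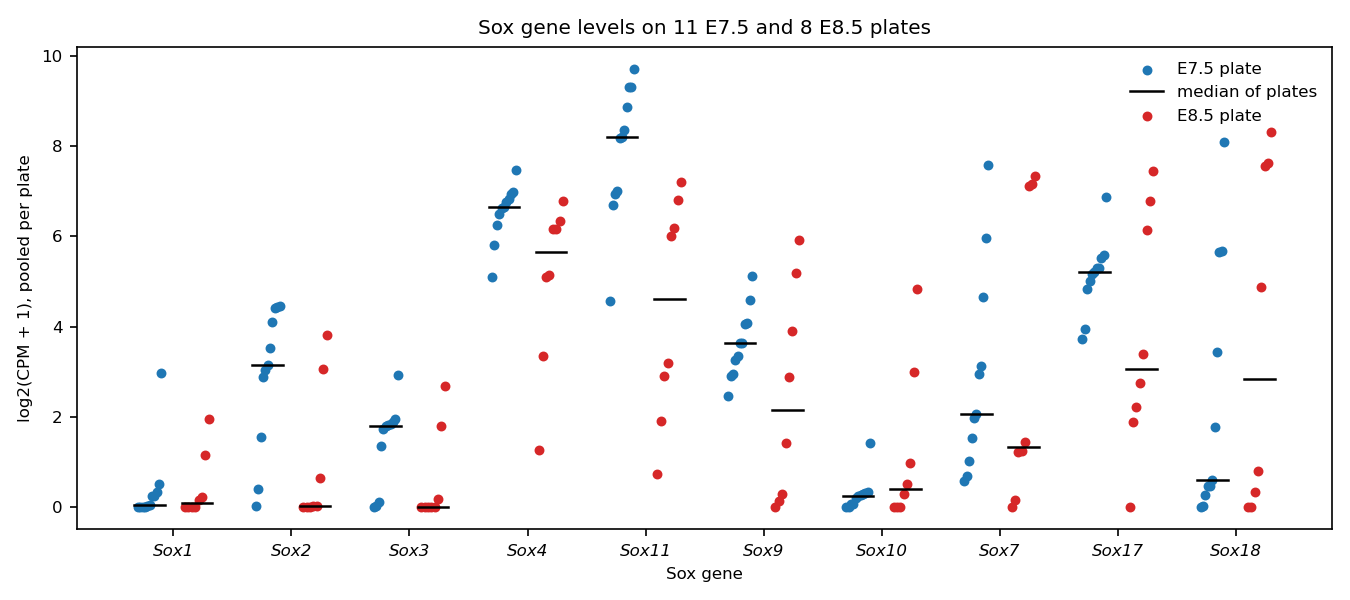
Level of each Sox gene (horizontal axis) on the 11 E7.5 plates and 8 E8.5 plates, as log2(CPM + 1) of the pooled cells of a plate (vertical axis); points are plates and bars their medians. The stages overlap for all 10 genes, and Sox11 comes closest to separating them.

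Over 21 profiles, each a class with at least 20 cells at a stage, the profile of log2(CPM + 1) of each member was set beside those of 13084 other genes. The profiles share plates and libraries, and Pearson r is a description only. Sox2 and Sox3 were alike (r = 0.94), and so were Sox4 and Sox11 (0.77), while within SoxF the values were 0.64 for Sox7 and Sox17, 0.66 for Sox7 and Sox18 and 0.40 for Sox17 and Sox18. The genes outside the family most like Sox2 were Fmn2, Pou3f1 and Fzd9 (0.88, 0.87 and 0.83), and those most like Sox3 were Lhx5, Pou3f2 and Nalcn. For Sox18 they were Thsd1, Abi3 and Adam12 (0.93 each), for Sox7 Pcdh12, Adgrf5 and Tmem204 (0.88, 0.83 and 0.83), and for Sox17 Fam89a, Prdm1 and Chst15 (0.84, 0.83 and 0.82). Mex3a was among the 3 most like both Sox4 (with Fign and Ctxn1) and Sox11 (with Zfp260 and C530008M17Rik), at 0.91 and 0.92. Those most like Sox9 were 1110032A03Rik, Tpbg and Cdh6 (0.93, 0.92 and 0.92), and those most like Sox10, which rests on few cells, were BC024139, Zfp536 and Wnt1 (0.99, 0.96 and 0.96). Sox1 did not reach 10 CPM in any class with at least 20 cells at a stage and was not ranked.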

How the data were processed

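RNA was measured in 1824 single cells. The authors deposited whole-number read counts per gene and cell, made with HISAT2 2.1.0 and featureCounts on GRCm38 (submitters' processing notes and paper), with Ensembl annotation and 75-base single-end reads. Strand and multi-mapping settings are not given in the sources used here, and without molecular identifiers intervals cover counting error only. All counts were used as deposited, and the single table holds no other measure.

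The 175 wells under 100000 reads were left out. Of the kept cells 15 exceeded the study's limit of 20% ribosomal reads and none its limit of 10% mitochondrial reads. Cells were clustered with scanpy 1.11.5 (2000 variable genes, 30 components, 15 neighbours, resolution 1) without Sox genes, and named from fixed markers. No doublet caller was run, as wells held sorted singlets, and no 2 cells had identical counts. Pooled CPM were compared as log2(CPM + 1). Embryos were tested with edgeR 4.0.16 (quasi-likelihood, embryo as a block because both lineages came from the same animal, 1% FDR and past 2-fold, at least 5 cells per lineage), checked on simulated data, with DESeq2 1.42.0 as an alternative. Cells came from separate wells, and p-values measure the spread between 4 embryos.

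The genes named are the members, the 9 other Sox genes, the 3 genes most alike to each member, and up to 4 listed partners with the widest ratio. Members and lists were chosen with earlier results of these data known. Promoter and protein sequences were not used here. One listed partner gene is not reported here.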

Additional observations from a re-analysis of the deposited data

Results flagged for a closer look

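Among 13 sets of 4 embryo values with at least 10 CPM in 1 of them, 3 had an embryo far from the other 3 by Dixon's ratio. Each of these 3 sets reached 10 CPM only through the embryo that stood apart. The usual chance rate of about 1 of 20 sets therefore does not apply, and the ratio serves only to flag values. Sox17 stood at 78.3 CPM in the mesoderm of embryo 5, against 0.950 to 4.58 CPM in the other embryos. Sox18 stood at 25.2 CPM in the mesoderm of embryo 4, against 0 to 2.38 CPM. Sox9 stood at 50.6 CPM in the endoderm of embryo 5, against 0 to 5.75 CPM. These values rest on 14, 8 and 14 cells, and embryo 5 was also the only 1 of the 4 with cardiac and pharyngeal mesoderm-like cells in its mesoderm (2 cells). Why these embryos stood apart was not tested.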

How the results depend on the processing

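No member was called between stages under any alternative run there (among them read minimum, quality limits, library scaling, pseudocount and leaving out each plate). In the lineage comparisons 8 were called higher under every alternative run there. These were among others quality limits, clustering, library size without haemoglobin genes and leaving out each plate. Read minimum and pseudocount were not varied for the lineage comparisons. A clustering resolution of 0.5 gave no ectoderm at E8.5. The total of cells with 2 members of a listed pair was 1736, and 1669 to 2115 under the alternatives. Single shares and pairs were less stable. Over 2 alternatives, any read without thinning and a minimum of 10 CPM, 4 of 36 detection shares and 10 of 40 pair counts moved. With any read counted, Sox2 in E7.5 ectoderm went from 55.6% to 68.2%, and cells with Sox1 and Sox2 at E7.5 from 11 to 20. Partner counts without class markers were chosen after seeing the data. The embryo test depended more on settings. For ectoderm over mesoderm the 0 members called at 1% FDR became 3 at 5% FDR, 2 with no replicate block, 3 with DESeq2 and 3 with no filter on low counts, and stayed at 0 to 0 when embryos were left out in turn. For endoderm over ectoderm the 1 member called became 3 with DESeq2 (Sox2, Sox11 and Sox17), and 0 to 1 when embryos were left out. Sox9 in endoderm over ectoderm (log2 fold change -0.9955, not called) turned to 1.39 with no replicate block, and ran from -2.53 to 0.51 when embryos were left out. Of all genes tested in ectoderm over mesoderm 2.09% were called, against 4.84% with no replicate block, 11.8% with DESeq2, 1.76% of a longer list with no filter and 0.520% to 0.916% when embryos were left out. In endoderm over ectoderm the share was 0.180%, against 1.25%, 8.47%, 0.698% and 0.0156% to 0.0726%. No share of all genes is given at 5% FDR. Why the calls differed between settings was not tested. A minimum of 10 cells per lineage could not be run, since fewer than 3 embryos reached it. Of 87 fold changes recomputed, 73 kept their direction and call, 10 gained and 2 lost a call, and 2 turned, while 1 stage ratio and 22 lineage ratios moved by more than the spread between plates. The median log2 ratio of all genes between stages was 0.08, and 0.13 without haemoglobin genes. Depth limited Sox1, Sox3 and, outside the Crabp2-led cluster, Sox10. In that cluster 5 of 34 cells of E8.5 had Sox10 with or without thinning, and Sox10 rests on 5 cells at E8.5.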
